A study of Drosophila melanogaster with 4 samples.

Results

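The regions described are the enriched clusters of elongating RNA polymerase II on chromosome 4, on the mapped heterochromatin of the other chromosomes (named 2LHet, 2RHet, 3LHet, 3RHet, XHet, YHet) and on U, which holds sequence not placed on any chromosome. They were chosen by sequence name alone and number 257 of the 5803 enriched clusters in the combined list, the authors' list for the whole replicate set. Chromosome 4 held 98 of them, the mapped heterochromatic sequences 82 and U 77. The mapped heterochromatic clusters divide into 35 on 2RHet, 25 on 3LHet, 13 on 3RHet, 4 on 2LHet, 3 on XHet and 2 on YHet.

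The study used CME-W1-Cl.8+ cells (Clone 8), a *Drosophila melanogaster* line grown from the dorsal mesothoracic (wing) disc of the third larval instar and labelled male. It has no treatment or mutant group. Chromatin was immunoprecipitated in 2 replicates with ab5095, an antibody against polymerase phosphorylated at serine 2 of the heptad repeat of its largest subunit's tail. The labels also name 2 inputs, whose own values were not analysed here, and leave unsaid whether separate cultures were used, so the replicate spread may be only technical.

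Phosphorylation at serine 2 is laid down as polymerase leaves the promoter-proximal region, and chromatin carrying it marks the bodies of genes being transcribed. Heterochromatin is the compact, repeat-rich chromatin around centromeres and on the Y, bound by the protein HP1a; it holds few genes, some of which, such as light and rolled, are transcribed from within it. Chromosome 4 is a small autosome that carries HP1a along much of its length and yet has many active genes, and it is bound by its own protein, POF. The Y chromosome's protein-coding genes are known for transcription in the male germ line.

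A cluster is an interval on FlyBase release 5 with a log2 enrichment, which is the authors' own value. What that enrichment is relative to is not stated in the sources used here, and sequencing depth is unknown for these lists. Replicate values are given as mean ± SD over 2 libraries. No test between sequences was made, since there is 1 chromosome 4 and an exact sign permutation over 2 replicates cannot go below p = 0.5. Differences between sequences are therefore read only against the spread between replicates. No sequence letters are shown and no cluster is assigned to a gene, because no genome of release 5 was used here.

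Chromosome 4 was densely covered and the heterochromatic and unplaced sequences sparsely. Clusters covered 27.5% of chromosome 4 in replicate 1 and 33.0% in replicate 2, against 15.9% and 16.9% of the autosomal arms 2L, 2R, 3L and 3R and 18.8% and 19.7% of X. The heterochromatic and unplaced sequences together were covered to 1.44% and 1.80%. The ratio to the autosomal arms was 1.84 ± 0.16 for chromosome 4 and 0.0985 ± 0.0112 for the heterochromatic and unplaced sequences (SD, n = 2). Within each replicate chromosome 4 lay above the arms and the heterochromatic and unplaced sequences below them, and these differences exceeded the spread between replicates. Shares are of the full sequence length. How much of each sequence reads could be aligned to was not examined, and its part in the low cover was not tested. In bulk chromatin from a cell line, fewer cells with polymerase on a region and less polymerase per cell also cannot be told apart.

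**Figure D1:**
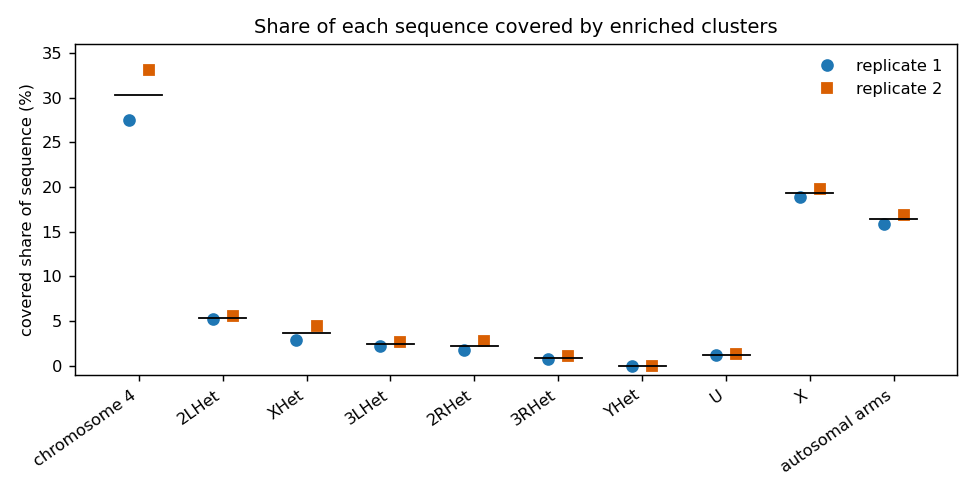
Covered share of each sequence (percent of its length, vertical axis) in replicate 1 (circles) and replicate 2 (squares), with the mean as a line; autosomal arms are 2L, 2R, 3L and 3R together. Chromosome 4 sits at 27.5% and 33.0%, above the autosomal arms at 15.9% and 16.9%, and each heterochromatic sequence and U lies below the arms.

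The high share of chromosome 4 was not beyond the range of equally long stretches of the large arms. The arms 2L, 2R, 3L, 3R and X were divided into 86 consecutive windows of 1351857 bp, the length of chromosome 4. Their mean covered shares over the replicates ran from 3.16% to 32.1%, with a median of 17.0%, against 30.3% for chromosome 4. The windows above chromosome 4 numbered 2. One lay on 3R from 4055572 to 5407428 (31.6% in replicate 1 and 32.5% in replicate 2) and the other on X from 1351858 to 2703714 (31.0% and 32.7%). In replicate 1 those 2 windows exceeded chromosome 4, and in replicate 2 none did.

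More clusters and wider ones both went with the greater cover of chromosome 4. It held 62.9 clusters per Mb in replicate 1 and 62.1 in replicate 2, against 42.1 and 40.9 on the autosomal arms. Its median cluster width was 2850 bp in replicate 1 and 3210.5 bp in replicate 2, against 2547 and 2695 bp on the autosomal arms. The ratio of those widths was 1.16 ± 0.05 (SD, n = 2), smaller than the ratio of cluster densities, 1.51 ± 0.02. In the combined list the median widths were 2723.5 bp on chromosome 4 and 2688 bp on the arms, a ratio of 1.01.

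The upper end of the width distribution set chromosome 4 further apart. Clusters wider than 10 kb made up 7.08% of all combined clusters and 12 of 98 (12.2%) on chromosome 4. They were 4 of 82 (4.88%) on the mapped heterochromatic sequences and 0 of 77 on U, a count that allows a share of up to 3.90%. On the autosomal arms they were 6.55% of combined clusters and on X 9.21%. In the replicates, clusters wider than 10 kb were 10 of 85 (11.8%) and 11 of 84 (13.1%) on chromosome 4. Over all sequences they were 4.49% and 6.19%, on the autosomal arms 4.06% and 5.59%, and on X 5.84% and 8.26%. Those on chromosome 4 held 37.4% and 44.5% of its covered length, against 19.6% and 23.8% on the autosomal arms and 22.9% and 29.3% on X.

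The widest cluster of chromosome 4, from 879019 to 941509, measured 62.5 kb with a log2 enrichment of 0.91. Replicate 1 had 8 separate clusters within it, 1367 to 14348 bp wide, that covered 74.1% of it, with log2 enrichments of 0.43 to 1.23. Replicate 2 had 3 clusters that covered 96.0% of it. A single one of those, from 880065 to 932116, was 52052 bp wide with a log2 enrichment of 1.04 and spanned 6 of the 8 replicate 1 clusters. The domain was found in both libraries but was divided into different numbers of clusters. Without the clusters in that domain, and with the arms unchanged, the ratio of chromosome 4 to the autosomal arms was 1.60. That comparison was added after seeing the data. With clusters wider than 20 kb left out on chromosome 4 and the arms alike, the ratio was 1.90.

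Another 3 of the widest clusters lay side by side at the lower-numbered end of chromosome 4, right after a stretch with no cluster. They ran from 62899 to 78039, from 78919 to 98119 and from 101495 to 118427. Their log2 enrichments were 1.26, 1.68 and 1.12 in the combined list. Replicate 1 gave 1.15, 1.61 and 1.04, and replicate 2 gave 1.36, 1.75 and 1.19. Each was a single cluster in each replicate and was covered to at least 97.1% in both. These 3 were higher in replicate 2.

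Further wide clusters lay from 561617 to 580257 (18.6 kb, log2 enrichment 1.39), from 667693 to 685801 (18.1 kb, 1.20), from 1042728 to 1057122 (14.4 kb, 1.28) and from 1323884 to 1336774 (12.9 kb, 1.33). All 4 were single clusters in replicate 2, and those from 667693 and 1323884 were 2 clusters in replicate 1. Across the combined clusters of chromosome 4, width and log2 enrichment had a Spearman rho of 0.677, against 0.659 on the autosomal arms. On the mapped heterochromatic sequences rho was 0.222 and on U it was -0.137. The contrast was smaller in the replicate lists. In replicates 1 and 2 rho was 0.599 and 0.647 on chromosome 4 and 0.597 and 0.374 on the mapped heterochromatic sequences. On U it was 0.258 and 0.194, so its negative sign appeared in the combined list only. These are correlations across clusters that share libraries and calling, and no p is given.

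**Figure D2:**
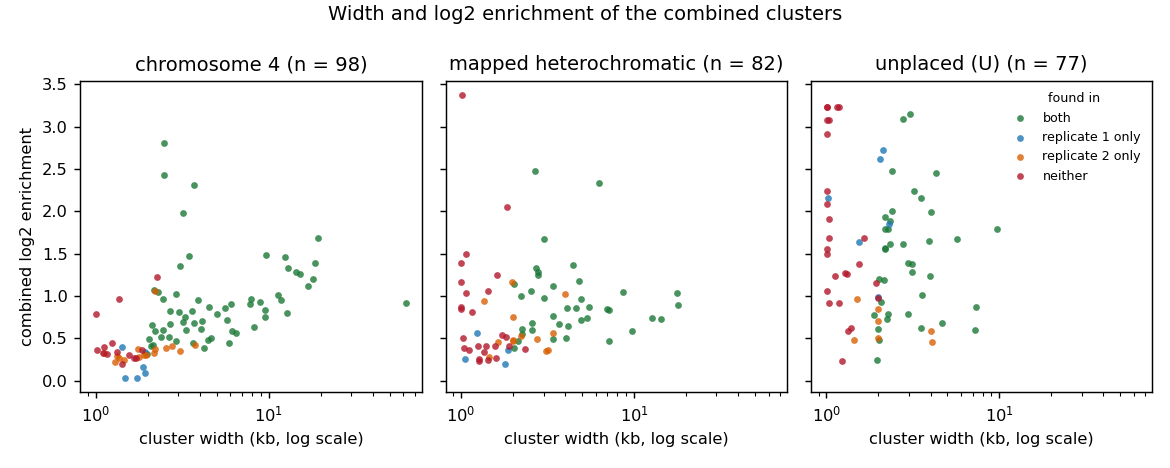
Width (kb, log axis) and log2 enrichment of each combined cluster on chromosome 4 (98), the mapped heterochromatic sequences (82) and U (77), coloured by the replicates in which a cluster was found. On chromosome 4 wider clusters had higher values (rho 0.677), whereas on U the clusters found in neither replicate reach 3.23 at widths close to 1 kb.

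The strongest clusters of chromosome 4 were of middling width and lay together near its higher-numbered end. Clusters above a log2 enrichment of 2 made up 8.65% of all combined clusters and 3 of 98 (3.06%) here. All 3 stood between 1289989 and 1317876. The cluster from 1296157 to 1298638 had a log2 enrichment of 3.19 in replicate 1 and 2.36 in replicate 2. The cluster from 1315391 to 1317876 had 2.75 and 2.05, and the one from 1289989 to 1293686 had 2.50 and 2.18. Each was 2.48 to 3.70 kb wide, between the quartiles of all combined chromosome 4 clusters (1902 and 5455 bp), and lower in replicate 2.

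Of the next highest clusters, the one from 521197 to 524410 had a log2 enrichment of 2.31 in replicate 1 and 1.96 in replicate 2. It was followed by the one from 524766 to 527064 and by the one from 527145 to 530207, which had 1.56 and 1.22. The cluster from 689819 to 693284 had 1.71 and 1.52, and that from 327690 to 337279 had 1.42 and 1.56. The cluster from 1337087 to 1349576, near the end of the sequence, had 1.52 and 1.42. The last combined cluster began 35 bp after it, at 1349612, had a log2 enrichment of 1.23 and overlapped no replicate cluster. It was deposited 834 bp past the end of the sequence and was shortened to 2246 bp.

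The typical chromosome 4 cluster had a slightly lower log2 enrichment than the typical arm cluster. The medians were 0.85 in replicate 1 and 0.76 in replicate 2, against 0.94 and 0.87 on the autosomal arms, a difference of -0.10 ± 0.02 (SD, n = 2). The difference from the mapped heterochromatic sequences was 0.06 in replicate 1 and -0.14 in replicate 2, so its direction changed between the replicates. Values above 2 were held by 5.88% and 3.57% of chromosome 4 clusters, against 13.2% and 8.95% of arm clusters.

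Clusters on chromosome 4 lay closer together than on the autosomal arms and the mapped heterochromatic sequences, and about as close as on X. The median gap between neighbours was 4.45 kb in replicate 1 and 3.79 kb in replicate 2 on chromosome 4. It was 14.6 and 39.2 kb on the mapped heterochromatic sequences, 6.31 and 5.99 kb on the autosomal arms, and 4.39 and 4.48 kb on X. Chromosome 4 thus had the longer median gap of the 2 in replicate 1 and X in replicate 2. Gaps under 1 kb made up 21.4% and 22.9% of those on chromosome 4, against 15.4% and 16.8% on the autosomal arms and 19.9% and 21.9% on X. In the combined list, where clusters are more numerous, 35 of 97 gaps on chromosome 4 (36.1%) were under 1 kb, against 13 of 76 (17.1%) on the mapped heterochromatic sequences, 3 of 76 (3.95%) on U, 19.2% on the autosomal arms and 26.9% on X. The longest stretches of chromosome 4 without a cluster in any list were its first 62898 bp, 57.7 kb from 739990 to 797716 and 51.5 kb from 1082549 to 1134029. No other stretch of chromosome 4 without a cluster in any list exceeded 50 kb.

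**Figure D3:**
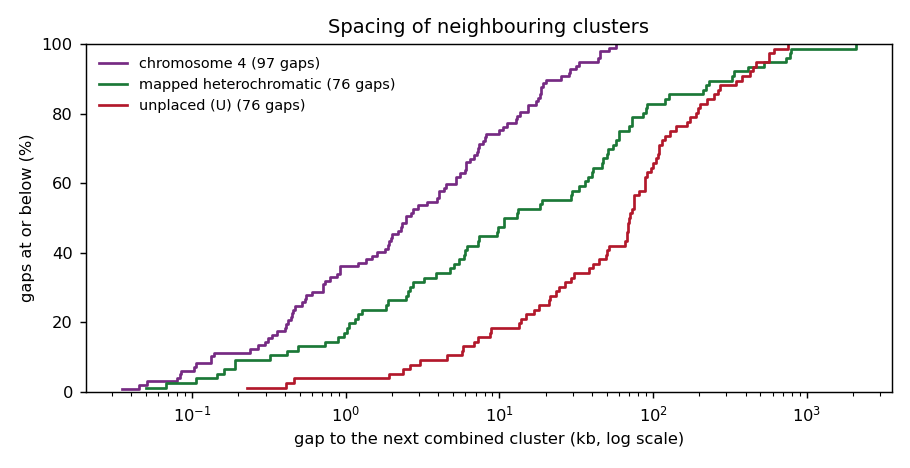
Cumulative share of gaps (percent, vertical axis) by the distance from each combined cluster to the next on the same sequence (kb, log axis), for chromosome 4 (97 gaps), the mapped heterochromatic sequences (76) and U (76). The median gap was 2.47 kb on chromosome 4, 11.8 kb on the mapped heterochromatic sequences and 70.3 kb on U, where gaps can run across separate unplaced pieces and need not be distances on a chromosome.

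Cover varied along chromosome 4, and the most and least covered bins were the same in both replicates. Among 14 bins of 100 kb, of which the last is shorter, the most covered was the last, from 1300001 to 1351857, with 55.7% in replicate 1 and 56.4% in replicate 2. The bin from 900001 to 1000000 followed with 43.5% and 54.9%, and the bin from 100001 to 200000 with 38.4% and 44.0%. The first bin was covered to 34.1% and 34.0% although its first 62898 bp were empty. By the mean of the replicates the least covered was the bin from 1100001 to 1200000, with 10.5% and 10.0%, and next the bin from 400001 to 500000, with 18.8% and 19.7%. The remaining 8 bins had means of 22.5% to 33.4%. Across the 14 bins the replicate shares had a Pearson r of 0.934; neighbouring bins can share a cluster, and no p is given.

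Replicate 2 covered more of chromosome 4 than replicate 1, and the excess was uneven along it. The covered share of replicate 2 was 1.20 times that of replicate 1 on chromosome 4 and 1.36 times on the mapped heterochromatic sequences, against 1.06 times on the autosomal arms and 1.05 times on X. The 5 bins from 600001 to 1100000 were covered more in replicate 2 by 7.05 to 11.6 percentage points. In the other 9 bins the difference lay between -0.54 and 6.29 points. Bases of chromosome 4 covered in replicate 2 but not in replicate 1 came to 94.5 kb, of which 45.3 kb lay at the edges of shared clusters, 13.8 kb between replicate 1 clusters that replicate 2 joined, and 35.4 kb in clusters of replicate 2 alone. The reverse came to 19.2 kb. Library depth is unknown, and its part in this difference was not tested.

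**Figure D4:**
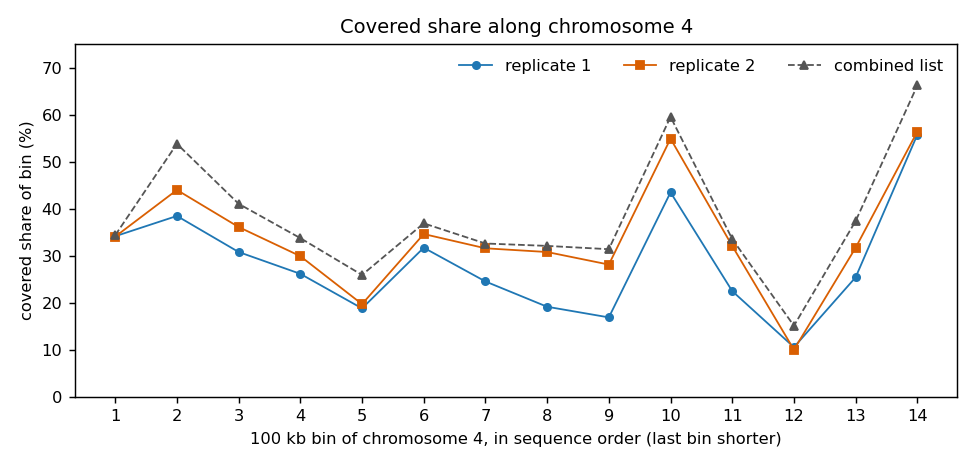
Covered share (percent, vertical axis) of each 100 kb bin of chromosome 4 in sequence order (horizontal axis; the last bin is shorter) in replicate 1, replicate 2 and the combined list. Both replicates are highest in the last bin (55.7% and 56.4%) and lowest in bin 12 (10.5% and 10.0%), and they differ most in bins 7 to 11.

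The mapped heterochromatic sequences differed widely among themselves. Cover in replicates 1 and 2 was 5.20% and 5.60% on 2LHet, 2.87% and 4.50% on XHet, 2.17% and 2.71% on 3LHet, 1.79% and 2.73% on 2RHet, and 0.776% and 1.08% on 3RHet. The 2LHet values lay above those of the other sequences in each replicate. The ranges of 3LHet and 2RHet overlapped, whereas XHet lay above both and 3RHet below both in each replicate. YHet had no cluster in either replicate.

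Clusters on the longer heterochromatic sequences stood in blocks separated by long empty stretches. On 2RHet, 18 combined clusters lay between 80815 and 687856 and 17 between 2774977 and 3242494. The 2087 kb between these blocks, 63.5% of the sequence, held no cluster in any list. On 3LHet, 14 clusters lay between 2188939 and 2538293 and 8 between 410481 and 667708, and stretches of 792 and 728 kb without a cluster stood on either side of a single narrow one at 1395966. On 3RHet, 8 of 13 lay between 1704316 and 1909451, and its longest empty stretch was 776 kb. Whether reads could be aligned in these stretches was not examined.

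The widest heterochromatic cluster measured 17.9 kb, on 2RHet from 86386 to 104317, with a log2 enrichment of 0.76 in replicate 1 and 1.05 in replicate 2. It was a single cluster in each. On 2LHet the cluster from 19999 to 37724 (17.7 kb, combined log2 enrichment 1.03) consisted of 4 clusters in replicate 1 and 3 in replicate 2. On 3LHet the cluster from 553774 to 568049 (14.3 kb, 0.72) and on 2RHet the cluster from 291789 to 304499 (12.7 kb, 0.74) were each 3 clusters in replicate 1 and 1 in replicate 2. The second of these was covered to 46.7% in replicate 1 and 98.9% in replicate 2. A 9.70 kb cluster on 2RHet from 2895573 to 2905269 (0.58) was covered to 13.7% in replicate 1 and 97.6% in replicate 2. Replicate 2 thus covered these domains more fully than replicate 1.

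Among heterochromatic clusters found in both replicates, the highest lay on 2LHet from 123207 to 125880. It had 2.70 on the log2 scale in replicate 1 and 2.26 in replicate 2. On 3LHet the cluster from 2396709 to 2402975 had 2.56 and 2.35, the one from 605177 to 608173 had 1.66 and 1.72, and the one from 2188939 to 2191731 had 1.35 and 1.24. On 2RHet the cluster from 468783 to 473224 had 1.41 and 1.45, and the one from 389272 to 394079 had 1.17 and 1.20. On 3RHet the cluster from 1704316 to 1707013 had 1.27 and 1.43, and the one from 2448325 to 2450344 had 0.93 and 1.29. Neither replicate was higher throughout.

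Some of the highest heterochromatic clusters lacked a counterpart in one or both replicates. On 3LHet the cluster from 665874 to 667708 (combined log2 enrichment 2.05) and the one from 2261645 to 2262648 (1.39) were in neither. The same was true on 2RHet of the clusters from 2891322 to 2892940 (1.25) and from 3146021 to 3147021 (1.17), and on 3RHet of the one from 1819211 to 1820211 (0.87). Replicate 2 alone held the clusters from 2880465 to 2882438 on 2RHet, with 1.82 there, and from 845417 to 846767 on 3RHet, with 1.29.

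XHet and YHet held few clusters, and each can be given. On XHet the cluster from 59233 to 64578 had a log2 enrichment of 0.96 in replicate 1 and at most 0.93 in replicate 2, where it was 2 clusters. The one from 74258 to 79768 had 1.01 and 0.99, and the one from 79959 to 80978 (0.51 in the combined list) was in neither. On YHet the clusters from 71786 to 72859 (1.50) and from 304525 to 306418 (0.41) were also in neither replicate. On 2LHet the remaining clusters lay from 166641 to 170043, with 1.14 and 1.15, and from 199125 to 200276 (0.81), in neither replicate.

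U held sparse, narrow clusters of high log2 enrichment. U joins unplaced pieces end to end, so position along it has no chromosomal meaning and a gap can run across several pieces. As listed, the median gap was 116 kb in replicate 1 and 129 kb in replicate 2, which are not set against the arms for that reason. Cluster density does not depend on the order of the pieces and was 4.48 and 4.58 per Mb on U, against 42.1 and 40.9 on the autosomal arms. The median width on U was 2165 and 2189 bp, which is 0.83 ± 0.03 of the arms. Whether the lengths of the pieces limit cluster width was not tested. The median log2 enrichment was 1.59 and 1.39, above the arms by 0.58 ± 0.10 and above the mapped heterochromatic sequences by 0.65 ± 0.22 (SD, n = 2). In the combined list 19 of 77 clusters on U (24.7%) exceeded 2, against 8.65% of all combined clusters. Of these 19, 8 were under 1100 bp wide. In replicates 1 and 2 the share on U was 31.1% and 17.4%, against 13.1% and 8.82% of all clusters. Clusters were unevenly spread along the listed order, with 5 combined clusters from 2000001 to 4000000 and 33 from 8000001 to 10000000.

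The highest U cluster found in both replicates, from 9709805 to 9712850, had a log2 enrichment of 3.21 in replicate 1 and 3.11 in replicate 2. The cluster from 7541868 to 7546167 had 2.45 and 2.47, the one from 9093862 to 9097057 had 2.23 and 2.25, and the one from 6731053 to 6734573 had 2.25 and 2.10. For another 2 the replicates were further apart. The cluster from 8054981 to 8057744 had 2.23 in replicate 1 and 3.78 in replicate 2, and the one from 9177518 to 9179908 had 1.94 and 2.81. Replicate 1 also held U clusters absent from replicate 2, the highest from 9733428 to 9735326 (3.61) and from 8870024 to 8872038 (3.18), and the highest that replicate 2 alone held lay from 6802120 to 6803434 (1.98). The widest cluster on U measured 9.64 kb, from 4021393 to 4031031, with 1.74 and 1.83.

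Replicate support was lower on chromosome 4, on the mapped heterochromatic sequences together and on U than over the whole list. Of all combined clusters, 74.0% overlapped a cluster of both replicates by at least 1 bp. On chromosome 4 it was 62 of 98 (63.3%, exact binomial interval 52.9 to 72.8%), on the mapped heterochromatic sequences 39 of 82 (47.6%, 36.4 to 58.9%) and on U 38 of 77 (49.4%, 37.8 to 61.0%). The autosomal arms had 76.6% and X 69.0%. Intervals are at 95% and cover counting error over clusters only. The narrowest cluster was 1001 bp wide in the combined list and 1301 bp in each replicate list, so the narrowest combined clusters had less scope for a counterpart. Among combined clusters of at least 1301 bp, support was 68.9% on chromosome 4 and 62.6% on the heterochromatic and unplaced sequences together. The whole list was not recomputed at that width. By length, supported clusters held 87.5% of the combined cover of chromosome 4, 74.1% of that of the mapped heterochromatic sequences and 67.6% of that of U, against 90.6% on the autosomal arms.

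**Figure D5:**
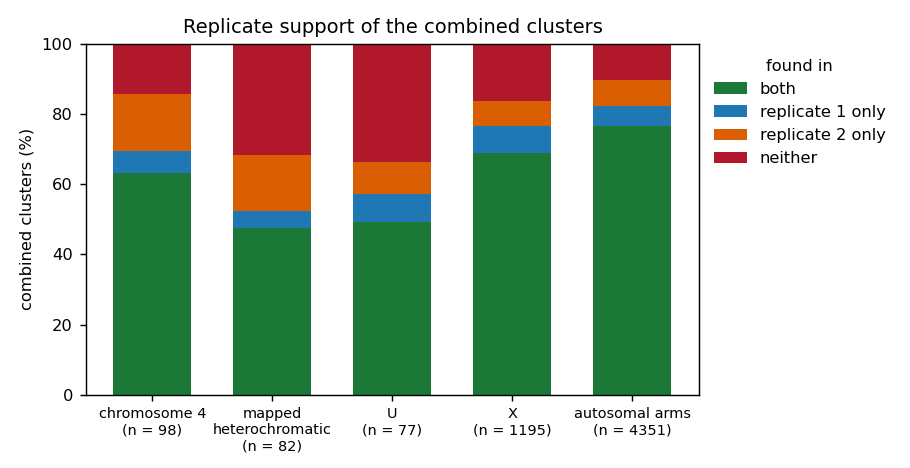
Share of combined clusters (percent, vertical axis) found in both replicates, in 1 replicate only or in neither, on chromosome 4, the mapped heterochromatic sequences, U, X and the autosomal arms, with the number of clusters below each bar. The share found in both is 63.3% on chromosome 4 and 76.6% on the autosomal arms, and 31.7% of clusters on the mapped heterochromatic sequences and 33.8% on U were in neither replicate.

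The clusters missing from a replicate were of different kinds on the different sequences. On chromosome 4, 16 combined clusters (16.3%) were found in replicate 2 only, 6 (6.12%) in replicate 1 only and 14 (14.3%) in neither. Over all combined clusters these shares were 7.67%, 6.15% and 12.1%, so the share in replicate 1 only was close to that of the whole list. The exact binomial interval of the share in neither, 8.04 to 22.8%, also included that of the whole list. The replicate 2 clusters of chromosome 4 with no counterpart numbered 17 of 84. They had log2 enrichments of 0.36 to 1.52, the highest from 1279941 to 1282145 and the next, 0.61, from 640796 to 644022. The 6 in replicate 1 had 0.06 to 0.57, the highest from 452226 to 453698. Of chromosome 4 clusters in replicate 1, 92.9% overlapped replicate 2, close to the 92.2% of all replicate 1 clusters. Of those in replicate 2, 79.8% (exact binomial interval 69.6 to 87.7%) overlapped replicate 1, against 89.9% of all replicate 2 clusters.

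The 14 chromosome 4 clusters in neither replicate were narrow and weak. Their widths ran from 1003 to 2246 bp and their median log2 enrichment was 0.35, against 0.83 for the 62 found in both. After the last cluster of the sequence, the highest were at 1278230 to 1279586 (0.97), 1263139 to 1264141 (0.78), 394287 to 395527 (0.44) and 146294 to 147414 (0.40).

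On U the clusters in neither replicate were as high as those found in both. The 26 in neither had a median log2 enrichment of 1.53 and a median width of 1080.5 bp, against 1.48 and 2772.5 bp for the 38 in both. On the autosomal arms the corresponding medians were 0.33 and 0.96. Of all combined clusters 3.48% were under 1100 bp wide, compared with 2 of 98 on chromosome 4, 10 of 82 (12.2%) on the mapped heterochromatic sequences and 14 of 77 (18.2%) on U. Of these 14, 13 were in neither replicate, as were 186 of the 202 clusters this narrow in the whole list. Neither replicate list held a cluster narrower than 1301 bp. Of the 14 on U, 8 exceeded a log2 enrichment of 2. Just 20 such narrow clusters exceeded 2 in the whole list. On 2RHet the highest combined cluster, from 3241479 to 3242494 (3.37, 1016 bp), was also narrow and in neither replicate.

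Several of these values were identical. The combined log2 enrichment 3.23 occurred 4 times on U, at 2637549, 8246370, 9881729 and 9974249, and the value 3.08 occurred 2 times, at 1941284 and 2644373. All 6 clusters were between 1001 and 1178 bp wide and were in neither replicate. On a linear scale the second value is 0.900 of the first. The value 3.23 was picked as the one most repeated on U, so the 4 U clusters that hold it are left out of the following count. Of the other 73 U clusters, 10 (13.7%) differed from it by the log2 of a ratio of whole numbers up to 14, within 1e-08, and 9 of these 10 were in neither replicate. The same held for 0 of 98 clusters on chromosome 4 and 26 of 4350 (0.598%) on the autosomal arms. Because the value was chosen on U, the contrast between sequences is a description only. Base 2 was itself taken from whole-number ratios among repeated scores of these lists. The count therefore does not test the base or the ratios. The quantities behind the score are not stated in the sources used here, and the 6 clusters are given as deposited.

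For clusters paired one to one between the replicates, the log2 enrichments followed each other on each kind of sequence. Spearman's rho was 0.819 over 66 pairs on chromosome 4, 0.888 over 41 on the mapped heterochromatic sequences and 0.814 over 38 on U, against 0.910 over 3493 on the autosomal arms. Replicate 2 was lower in 37 of 66 pairs on chromosome 4 (56.1%), in 15 of 41 on the mapped heterochromatic sequences (36.6%) and in 19 of 38 on U, against 67.2% on the autosomal arms. The mean difference, replicate 2 minus replicate 1, was -0.06 ± 0.26, 0.04 ± 0.17 and 0.01 ± 0.48, against -0.13 ± 0.27 on the arms (SD over pairs). Replicate 2 clusters were wider in 44 of 66 pairs on chromosome 4 (66.7%) and 33 of 41 on the mapped heterochromatic sequences (80.5%), against 54.5% on the arms. Pairs share their 2 libraries and are not independent, so no p is given.

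A single cluster on these sequences was named as depleted. It lay on chromosome 4 from 424228 to 425922, in replicate 2, with a log2 value of -0.0002. At the same place replicate 1 had an enriched cluster with 0.35 and the combined list one with 0.10. The bin from 400001 to 450000 that holds it was covered to 7.42% in replicate 1 and to 0% in replicate 2.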

How the data were processed

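Chromatin immunoprecipitation and sequencing lists of 2 replicates and 1 combined list were used. Per the submitters' processing notes the aligner was Bowtie 0.12.7, and per the file headers the build was FlyBase release 5. How clusters were called, thresholded, set against input and pooled is not given in the sources used here, so different thresholds in the 3 lists cannot be separated from differences in signal. The authors' deposited value per cluster was taken as a log2 enrichment, because differences between repeated scores matched whole-number ratios more often in base 2 (167 of 8128 pairs in the combined list) than in natural logarithms (0) or base 10 (11). Depth is unknown.

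Enriched clusters were taken as deposited, except 1 shortened to the end of chromosome 4. Width, gap, covered share of the full sequence length and overlap (1 bp) were computed with Python 3.11.15, numpy 2.4.6, pandas 2.3.3 and scipy 1.17.1. Overlap functions were tested on simulated data. Pairs are mutual best overlaps. A gene table of release 6 was not used.

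The members, comparisons and settings were chosen with earlier results of these data known. Named clusters follow a rule: on chromosome 4 the 12 highest found in both replicates, the 8 widest and the 5 highest in neither; on each heterochromatic sequence all where 8 or fewer, otherwise the 6 highest and 3 widest, of which the text gives those it compares; on U the 6 highest in both, the 6 highest in neither and the 3 widest. The 1100 bp width, the value of 2, the blocks, the windows, the whole-number ratios and the U segments were chosen after values were seen. The alternatives tried were each replicate alone, the combined list, stricter score and width limits, reciprocal overlap, joining of close clusters, other bins and leaving out U.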

Additional observations from a re-analysis of the deposited data

How the results depend on the processing

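No paired analysis was possible because the lists used hold 1 group, the immunoprecipitations, and no list of the inputs that share their replicate numbers was analysed here; ratios to the arms were taken within each replicate. Of 41 alternatives over 9 results, 23 moved a value by less than the replicate spread, the binomial interval or, for correlations, 0.05. The other 18 moved it further, and none of the 41 turned a direction. Without one replicate the ratio to the autosomal arms ran from 1.73 to 1.96 for chromosome 4 and from 0.0906 to 0.106 for the heterochromatic and unplaced sequences. Leaving out 1 replicate cannot move a mean of 2 by more than their SD. These alternatives were therefore among the 23 by construction and do not test the ratios. Without the widest domain of chromosome 4, and with the arms unchanged, the chromosome 4 ratio was 1.60 (added after seeing the data). Without clusters wider than 20 kb on both it was 1.90. The heterochromatic and unplaced ratio was 0.125 in the combined list and 0.0868 when keeping the higher-scoring 50% of clusters. The median width of chromosome 4 over these sequences was 1.28, and 1.24 in replicate 1, 1.30 for clusters in both replicates, 2.29 for the upper 50%, 1.22 without U and 1.78 with clusters closer than 1 kb joined. The ratio of median gaps was 0.209 without U. With U, whose gaps need not be distances on a chromosome, it was 0.0605. Also with U, it was 0.0703, 0.181 and 0.135 for clusters in both, the upper 50% and joined. The difference in median log2 enrichment was -0.35, and -0.11 in replicate 1, -0.19 for clusters in both, -0.21 for widths of at least 1301 bp and -0.12 without U. Leaving out U was counted in the combined list only. Without U this difference was 0.06 in replicate 1 and -0.14 in replicate 2, so its direction was not stable there. Support by both replicates rose to 89.7% on chromosome 4 for the upper 50%. For widths of at least 1301 bp, the minimum in the replicate lists, it was 68.9% on chromosome 4. On the heterochromatic and unplaced sequences, where it was 48.4%, support rose to 62.6% at that width. The cause of these shifts was not tested. Unknown depth and unexamined alignability limit what the absence of a cluster shows.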
